A study of Arabidopsis thaliana with 30 samples.

Results

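The genes described here had a higher level in the Arabidopsis root tip than in the stump left when the tip was cut off, and were near the tip level again, or above it, in the stump 22 h later. They were chosen from their measured values, on the scale log2(signal + 32). On this scale 1 unit is close to a doubling of the signal for bright probe sets and more than a doubling for dim ones. A probe set was kept when its group mean in the tip at 4 days post germination (dpg), in the tip at 8 dpg and in the stump at 22 h was in each case at least 1 above the stump at 0 h. The mean at 22 h also had to be no more than 0.5 below the tip at 4 dpg, and the mean signal in that tip at least 100. Of 22746 probe sets on the array, 86 met the rule. Before the conditions on 22 h, 381 probe sets met the conditions on the tips and the signal. The 295 of them that failed a condition on 22 h are called tip genes not regained. They include probe sets that were within 0.5 of the 4 dpg tip at 22 h but less than 1 above 0 h, such as AT5G65260 (0.998).

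Wild-type Col-0 seedlings were cut at 4 dpg, when the distal 130 um of the root was removed, and the 70 um of stump next to the cut was collected at 0, 5, 13 or 22 h. The 0, 5 and 13 h groups hold 4 arrays each and the 22 h group 5. Whole tips were collected at 4 dpg (4 arrays) and at 8 dpg (3 arrays), and the design names them as the end point of regeneration. A more proximal section (3 arrays), labelled as 270 to 340 from the tip and taken right after wounding, serves as the control tissue that does not regenerate. The labels print its unit as mm where the protocol gives cut lengths in um, and they give it no age. No group carries a transgene or a mutation. Each array holds RNA pooled from at least 25 root pieces, so the spread between arrays is not the spread between plants. The labels do not say that the arrays of a group came from separate sowings, and p-values therefore measure the spread between these arrays only.

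A last group, the stump at 8 dpg (3 arrays), has labels that conflict: its titles describe a stump cut anew at 8 dpg and collected at 0 h, and its source name gives 192 h after the first cut. Its arrays correlated with those of the 8 dpg tip at 0.964 to 0.975, as high as among themselves (0.969 to 0.976), and with the 0 h stump at 0.781 to 0.907. Of all probe sets, 92.7% lay within 0.5 of the 8 dpg tip in this group. A freshly cut stump and a tip could not be told apart on these values, and every result that uses the group is called by its label, stump at 8 dpg.

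The Arabidopsis root tip holds the root cap, the stem cell niche around the quiescent centre and the youngest cells of the meristem. When this end is removed, cells of the remaining stump can rebuild a tip, including its cap and niche. Auxin accumulates at a maximum in the normal tip, and the PLETHORA family of transcription factors, to which BBM belongs, acts in a graded way to keep cells in a meristematic state. Wounding in itself also sets off defence, cell wall and detoxification genes. Each piece of root was a mixture of cell types, so fewer cells of a type and less RNA per cell cannot be told apart.

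The array names a single gene for 43 of the 86 members, several genes for 2, and the remaining 41 are not listed in the name table used here and are given by probe set. The 43 named members are 43 different genes. They include the Aux/IAA gene IAA33, the AP2-type regulator BBM and the MADS-box gene AGL21. Genes of pectin and wall metabolism were AT1G02810, AT5G04970, AT3G15720, AT4G13210, GH9B13 and sks15. Genes of stress protection and detoxification were COR47, MT1C, GSTU25 and Hsp70-2. In the RefSeq gene order of TAIR10.1 the named members lay on all 5 chromosomes (13, 3, 8, 11 and 8 from chromosome 1 to 5). The closest were AT3G15680 and AT3G15720 with 3 genes between them, and AT3G15720 and AT3G15810 with 8.

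The mean of the 86 members on the log2 scale was 8.65 ± 0.041 in the 4 dpg tip (SD over arrays, n = 4) and 7.12 ± 0.053 in the 0 h stump (n = 4). It was 8.17 ± 0.100 at 5 h, 8.51 ± 0.102 at 13 h (n = 4 each) and 8.82 ± 0.167 at 22 h (n = 5). It was 9.27 ± 0.094 in the 8 dpg tip, 9.46 ± 0.064 in the stump at 8 dpg and 6.93 ± 0.038 in the section (n = 3 each). No array of the later stumps overlapped those of the 0 h stump or the section. Values at 0 h, 22 h and in both tips chose the members, so their order is a description and was not tested. The median of all 22746 probe sets differed from the 0 h stump at 5, 13 and 22 h by -0.15, -0.12 and -0.05, and that of the members by 1.02, 1.37 and 1.502.

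**Figure D1:**
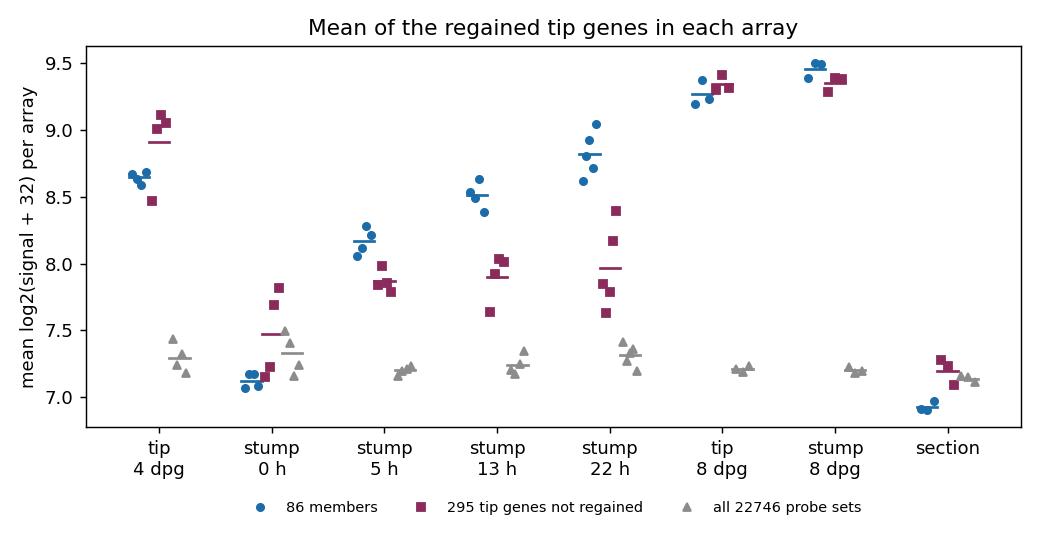
Mean of log2(signal + 32) per array over the 86 regained tip genes, the 295 tip genes not regained and all 22746 probe sets, by group, with points for arrays and bars for group means. The members lay at 8.17 on average at 5 h and 8.82 at 22 h, against 7.12 at 0 h, and the section lay at 6.93. From the 0 h stump to the section the mean over all probe sets went from 7.33 to 7.14.

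Values at the edge of the rule were close together. AT1G24440 at 1.002 and AT4G32605 at 1.003 above 0 h at 22 h were kept, and AT5G65260 at 0.998 was left out. AT5G10130 differed from the 4 dpg tip by -0.493 at 22 h and was kept, while AT1G24095 and AT2G43480 at -0.505 were not. The dimmest members in the tip were 259102_at with a mean signal of 101 and AT3G51750 with 102.5, and AT2G38800 with 81.9 was left out.

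Membership depended on the arrays at 0 h and on the constant added before the logarithm. With a constant of 1 the rule kept 168 probe sets, and with 64 it kept 50. Without replicate 4 of the 0 h stump it kept 125. Without the 4 arrays of highest median signal (replicates 1 and 2 at 0 h, replicate 1 of the 4 dpg tip and replicate 1 at 22 h) it kept 116, of which 59 were among the 86.

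The members came back to the tip level at different times. A member was counted as back at the first time at which its mean was no more than 0.5 below the 4 dpg tip. At 5 h 49 members were back (57.0%), against 123 of the 381 tip genes (32.3%). A further 20 members (23.3%) were back first at 13 h and 17 (19.8%) first at 22 h. The rule guarantees the last step, since it requires the return by 22 h, and regained and not regained genes share the same tip arrays. Among the 295 tip genes not regained, 25.1% were within the margin at 5 h and 23.7% at 13 h.

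On a scale where the 0 h stump is 0% and the 4 dpg tip 100%, the median member stood at 70.3% at 5 h, 88.3% at 13 h and 104% at 22 h. The members back at 5 h had medians of 104%, 108% and 113% at these times. Those back first at 13 h stood at 34.8%, 89.5% and 106%. Those back first at 22 h were still at 19.8% at 5 h and 37.9% at 13 h, and reached 85.5% at 22 h. The latest class had the highest mean level in the stump at 8 dpg (10.1, against 9.24 for the 5 h class and 9.44 for the 13 h class), and also in the 4 dpg tip (8.96, against 8.53 and 8.67) and in the 8 dpg tip (9.82, against 9.06 and 9.31).

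**Figure D2:**
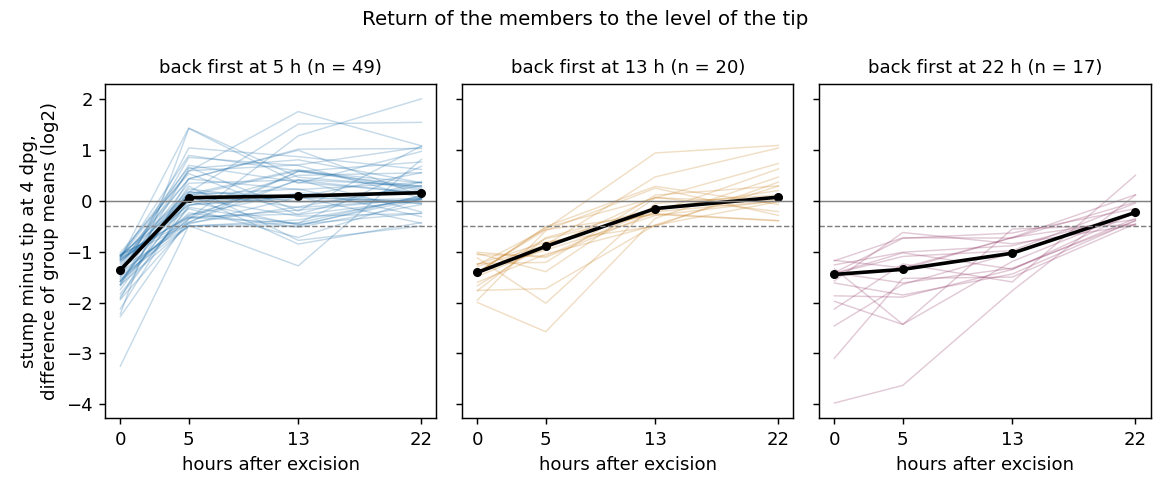
Difference of the stump from the 4 dpg tip in group means of log2(signal + 32), against hours after excision, with a thin line per member, the median of each class in black and the margin of 0.5 as a dashed line. The 49 members back at 5 h stayed near the tip on the median, the 20 back at 13 h were short of it at 5 h, and the 17 back at 22 h lay below the margin at 5 and 13 h.

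The sizes of the classes moved with single arrays. Without replicate 4 of the 0 h stump 82 members were back at 5 h, and without replicate 2 at 22 h 29 were back first at 22 h. With a constant of 1 the classes held 87, 40 and 41 members, and with 64 they held 29, 11 and 10. Without the 4 arrays of highest median the last class held 26.

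5 members were within the margin at 5 h and below it at 13 h: 259516_at, AT5G10130, IQD22, AT4G35985 and AT1G80380. At 13 h 64 members were within the margin. 11 members had a lower mean at 5 h than at 0 h, among them AT4G15830, IQD16, AT5G04970, scpl28 and AT4G13210, and none had one at 13 h. At 5 h 44 members had a mean at least 1 above 0 h (2.43% of all probe sets) and at 13 h 60 (2.95%). The rule itself set this for all 86 at 22 h, where 2.55% of all probe sets were that far above 0 h. Every array at 22 h was above every array at 0 h in 35 members (1.31% of all probe sets), so in the other members arrays of the 2 times overlapped. At 5 h this held for 31 members (2.73%), at 13 h for 40 (2.93%) and in the 4 dpg tip for 50 (2.28%). All counts against 0 h use arrays that chose the members, as do those of the 4 dpg tip and of 22 h. Part of their excess over all probe sets was therefore set by the rule, and they carry no test.

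At 22 h 53 of 86 were above the 4 dpg tip and 8 were at least 1 above it. The furthest above were 256825_at (2.01), IAA33 (1.55), 259272_at (1.09), UGT87A2 and 256300_at (1.08 each). At 5 h 259426_at and AT1G74010 (1.43 each) and Hsp70-2 (1.04) were at least 1 above the tip. At 13 h UGT87A2 (1.76), IAA33 (1.51), 256825_at (1.28) and 258586_s_at (1.02) were. These differences use the tip and the 22 h arrays that chose the members, and carry no test.

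**Figure D3:**
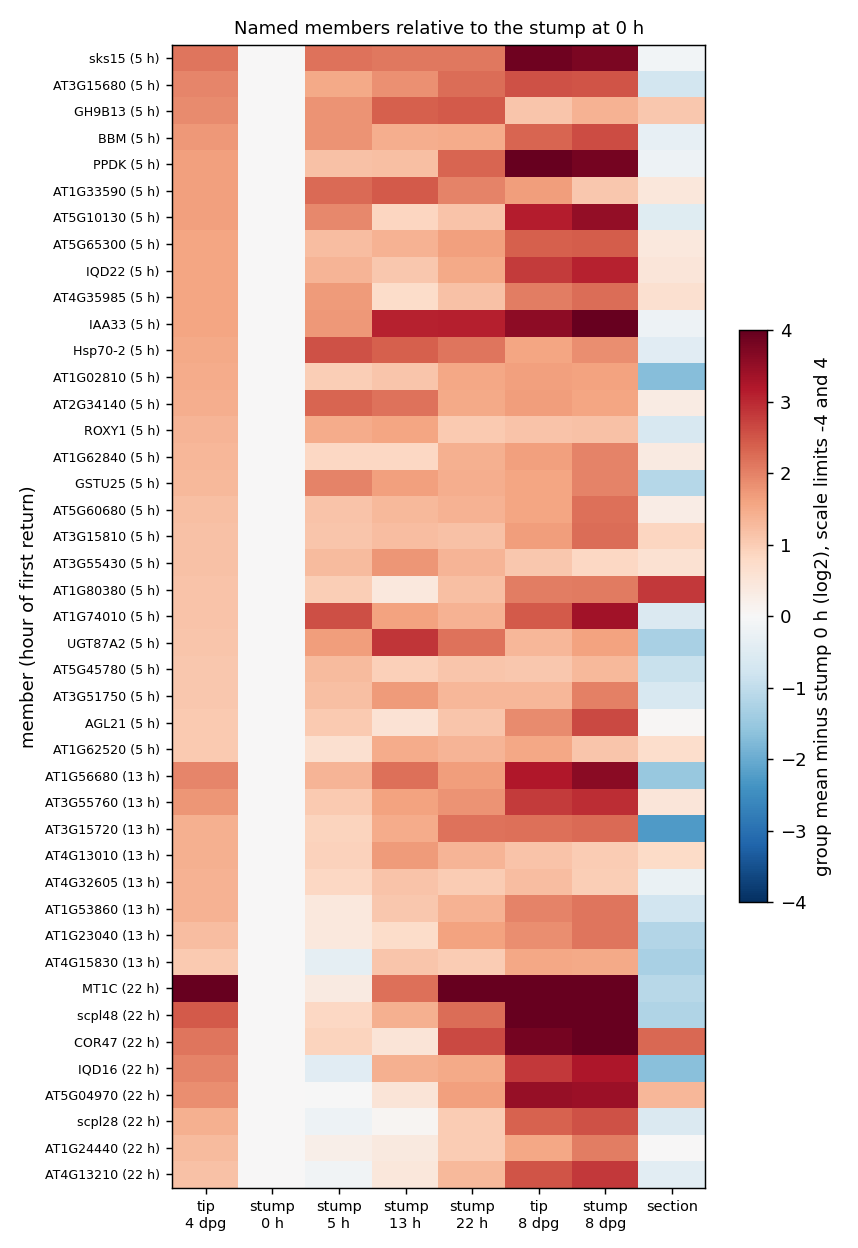
Difference of each group mean of log2(signal + 32) from the 0 h stump for the 43 named members, with the hour of first return beside each name and colours limited to the range from -4 to 4. Members such as IQD16 and AT4G15830 were at or below the 0 h level at 5 h, and AT1G80380 and COR47 were above it in the section.

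The tests below use only the groups that did not choose the members: the stumps at 5 h, 13 h and 8 dpg and the section. The stump at 8 dpg, however, correlated at 0.964 to 0.975 with the 8 dpg tip, which the rule required to be high. Its differences from the other groups were therefore partly set by the choice of members, and its tests are not independent of the rule. The 5 h and 13 h stumps correlated with the 22 h stump at medians of 0.896 and 0.917. The section differed from the 0 h stump by a median of -0.235 over the members. The rule required 22 h to be high and 0 h to be low, so the counts against the section are not independent of it either. All 30 arrays entered 1 linear model in limma, p-values were adjusted by the Benjamini-Hochberg method over 22746 probe sets, and a member was called at an adjusted p under 0.05 and a difference of at least 1 on the log2 scale. There were 6 comparisons, and several share a group: 3 share the section and 3 the stump at 8 dpg. The comparison of the stump at 8 dpg with the section was added after the values had been seen.

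From 5 h to 13 h 4 members rose and none fell (0.229% and 0.145% of all probe sets), with a median difference of 0.29 over the 86, and 0.03 over all probe sets. An unadjusted limma p under 0.05, in either direction, was reached by 24 of the 86 members. It was reached by 1600 of the 22746 probe sets and by 24 of the 295 tip genes not regained. The risers were IQD16, 253480_at, IAA33 and AT4G15830. Among the 295 tip genes not regained, 1 rose and 1 fell, with a median of 0.01. In 9 members every array at 13 h was above every array at 5 h (3.01% of all probe sets). Without replicate 2 or 3 at 5 h, or replicate 2, 3 or 4 at 13 h, 2 members were called, as also after quantile normalization or median centring. IQD16 and 253480_at were called in all 17 alternatives, and IAA33 and AT4G15830 in 7 of them.

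Against the section, 43 members were higher at 5 h and 3 lower (6.38% and 5.44% of all probe sets), and at 13 h 52 were higher and 1 lower (5.21% and 3.56%). The median differences were 1.13 and 1.41, and over all probe sets 0.08 and 0.12. The tip genes not regained were also higher than the section in part, 29.8% of them at 5 h and 26.8% at 13 h. In 50 members every array at 5 h lay above every section array (15.1% of all probe sets), and in 59 every array at 13 h did (15.3%). The age of the section is not given, and position and age cannot be told apart in these comparisons.

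Against the stump at 8 dpg, 43 members were lower at 5 h and 1 higher (3.72% and 3.16% of all probe sets), and 34 were lower and 2 higher at 13 h (3.24% and 3.75%). The median differences were -1.22 and -1.0, against 0.02 and 0.05 over all probe sets. The member higher at both times was AT1G33590, and the other at 13 h was UGT87A2. The call of UGT87A2 was lost with a constant of 1 and after quantile normalization or median centring. It was also lost without replicate 1, 2 or 3 at 13 h and without any single array of the stump at 8 dpg. Of the tip genes not regained, 45.4% were lower at 5 h and 44.1% at 13 h, and none was higher. Seedling age differs between these groups along with time after the cut.

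The stump at 8 dpg was higher than the section in 67 members and lower in 1 (10% and 7.83% of all probe sets), with a median of 2.58 against 0.05 over all. In 75 members every array of the stump at 8 dpg lay above every section array (25% of all probe sets). Of the tip genes not regained 209 were higher (70.8%). The member lower was 259272_at, and the call was lost with a constant of 1, after quantile normalization and without replicate 2 or 3 of either group (limma adjusted p up to 0.195).

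IAA33 encodes a non-canonical member of the Aux/IAA family, which acts in auxin signalling. Its signals in the 4 arrays at 0 h were 11.1, 13.8, 33 and 9.0. They were 131, 119.6, 95.4 and 177 at 5 h, 155, 382, 673 and 469 at 13 h and 393, 350.2, 339.8, 330.5 and 540.3 at 22 h. The 4 dpg tips gave 118.5, 122, 88.6 and 116. From 5 h onward every stump array was above every 0 h array, and at 22 h every array was above every 4 dpg tip. The 8 dpg tips gave 546.5, 724 and 393, the stump at 8 dpg 1022.5, 1016 and 812 and the section 26.5, 4.1 and 2.3. IAA33 rose from 5 h to 13 h by 1.35 ± 0.297 (SE, limma adjusted p = 0.0288, range 0.00143 to 0.231 over its alternatives). It was higher than the section by 1.94 ± 0.321 at 5 h (limma adjusted p = 4.78e-05) and by 3.29 ± 0.321 at 13 h (limma adjusted p = 9.4e-09).

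BBM is a member of the AP2 and PLETHORA group that acts in the root meristem. Its 0 h arrays read 23.3, 21.8, 6.6 and 25.5, and its 5 h arrays 182, 124, 166 and 118. At 13 h they read 100.1, 142, 178 and 43.1 and at 22 h 148, 50.5, 180.1, 65.4 and 164. Every 5 h array lay above every 0 h array, and the later arrays varied more, with 1 array at 13 h at 43.1, nearer to the highest 0 h array than to the rest of its group. The 4 dpg tips were as variable, at 87.7, 57.3, 315 and 192. The 8 dpg tips gave 185, 264 and 222, the stump at 8 dpg 235, 285 and 317 and the section 5.8, 6.8 and 12.5. BBM was higher than the section at 5 h by 2.14 ± 0.394 (limma adjusted p = 0.000195) and at 13 h by 1.78 ± 0.394 (limma adjusted p = 0.00216). Between 13 h and 5 h the difference was -0.36 ± 0.365 and was not called.

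AGL21 is a MADS-box transcription factor that acts in lateral root growth. Its arrays read 119, 186, 275 and 133 at 0 h, 341.5, 379, 338 and 516 at 5 h, 226, 258.5, 359 and 258.5 at 13 h and 349.6, 360.4, 332, 534 and 469 at 22 h. Every 5 h and 22 h array was above every 0 h array, and the 13 h arrays overlapped them. The 4 dpg tips were spread widely, at 189, 283, 530.4 and 781, and all 3 arrays of the stump at 8 dpg were far higher, at 1181, 1272.5 and 1211. AGL21 was lower than the stump at 8 dpg at 5 h, with a difference of -1.58 ± 0.303 (limma adjusted p = 0.000468). At 13 h the difference was -2.04 ± 0.303 (limma adjusted p = 1.25e-05).

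IQD16 and IQD22 encode proteins with an IQ domain, which binds calmodulin. IQD16 read 213, 82.3, 105 and 175 at 0 h and 112, 69.4, 101 and 83 at 5 h. It read 265, 378, 666 and 448 at 13 h and 262, 255, 445, 585 and 959.6 at 22 h, against 429, 529, 605 and 1114 in the 4 dpg tip. All 13 h arrays were above all 5 h arrays, and the 5 h arrays overlapped those at 0 h. The 3 section arrays were lowest, at 14.7, 31.5 and 16. IQD16 rose from 5 h to 13 h by 1.88 ± 0.324 (limma adjusted p = 0.00259), and at 5 h it was below the stump at 8 dpg, with a difference of -3.69 ± 0.35 (limma adjusted p = 3.91e-09). IQD22 had means of 18.5 ± 6.84 at 0 h, 96.2 ± 12 at 5 h and 77 ± 37.1 at 13 h (SD, n = 4 each), and was back at 5 h.

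AT2G34140, which encodes a Dof-type zinc finger factor, read 16.5, 58.6, 69.1 and 127 at 0 h and 515, 405, 407 and 384 at 5 h, where all 4 arrays were above the highest 4 dpg tip array of 328. It exceeded the section by 1.99 ± 0.359 at 5 h (limma adjusted p = 0.000152). ROXY1, a glutaredoxin of the CC type, had means of 37 ± 24.2 at 0 h and 156 ± 45.6 at 5 h (SD, n = 4 each) and exceeded the section by 2.11 ± 0.364 at 5 h (limma adjusted p = 8.79e-05). AT1G33590, a leucine-rich repeat protein, read 356, 402, 625 and 545 at 5 h, 431, 475, 601 and 661 at 13 h and 251, 204 and 121 in the stump at 8 dpg. Both stump groups lay above all 3 arrays of the latter. Its difference from the stump at 8 dpg was 1.21 ± 0.319 at 5 h (limma adjusted p = 0.0121, range 0.00192 to 0.134) and 1.38 ± 0.319 at 13 h (limma adjusted p = 0.00355, range 0.000426 to 0.058). The call was lost at both times without replicate 3 of the stump at 8 dpg, and at 5 h also without replicate 3 at 5 h.

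AT3G15720 encodes a polygalacturonase-type protein, of the enzymes that cut pectin. Its 0 h arrays read 482, 67.7, 114 and 135, 1 of them as high as a tip. The arrays at 5 h read 265, 349, 434 and 251, at 13 h 380.3, 527, 542.5 and 537 and at 22 h 1275.5, 1047, 768, 447 and 729. The 4 dpg tips read 411, 691, 443 and 387.5, and the section was nearly without signal, at 7.8, 7.7 and 6.7. AT3G15720 exceeded the section by 3.15 ± 0.348 at 5 h (limma adjusted p = 1.08e-07) and by 3.73 ± 0.348 at 13 h (limma adjusted p = 4.39e-09).

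AT1G02810 and AT5G04970 belong to the superfamily of pectin methylesterases and their inhibitors, which adjust the charge and stiffness of pectin. AT1G02810 was bright, with means of 1820.5 ± 908 in the 4 dpg tip and 617 ± 240.2 at 0 h (SD, n = 4 each). It stood at 1223 ± 345 at 5 h and 1307 ± 216 at 13 h (n = 4 each), and at 161 ± 47.3 in the section (n = 3). It exceeded the section by 2.68 ± 0.331 at 5 h (limma adjusted p = 6.95e-07). AT5G04970 behaved otherwise. Its 0 h arrays read 31.8, 212, 112 and 66.1, its 5 h arrays 13, 93.6, 97.5 and 247 and its 13 h arrays 209, 89.7, 212 and 96.4, which overlap throughout. At 22 h it read 670.2, 94.9, 249, 517.5 and 538, and the section gave 196, 242 and 425, within or above the 13 h range. It was below the stump at 8 dpg with a difference of -3.45 ± 0.487 at 5 h (limma adjusted p = 5.35e-06).

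GH9B13, a family 9 glycosyl hydrolase of the endoglucanase kind, read 381, 969, 180.5 and 355 at 0 h and 1843, 1362, 1544 and 1149 at 5 h, with no overlap. It was the member with the lowest level in the 8 dpg tip relative to the 4 dpg tip (-0.78). The SKU5-similar gene sks15 had a mean of 298 ± 65.4 at 0 h and 1458 ± 281 at 5 h (SD, n = 4 each), and exceeded the section by 2.28 ± 0.409 at 5 h (limma adjusted p = 0.00014). The pectate lyase-type gene AT4G13210 was back only at 22 h. It stood at 92.3 ± 72.3 at 5 h and 130.1 ± 33.2 at 13 h (SD, n = 4 each) and at 288 ± 159 at 22 h (n = 5), and at 5 h it was below the stump at 8 dpg by a difference of -2.97 ± 0.442 (limma adjusted p = 1.2e-05). AT5G10130, of a family of pollen-allergen-type wall proteins, was back at 5 h and below the margin at 13 h. Its arrays read 2466, 3585, 2441 and 3456 at 5 h and 1074, 1101, 2266 and 1378 at 13 h, with no overlap, and the difference of -1.07 ± 0.342 between them was not called (limma adjusted p = 0.277).

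MT1C encodes a metallothionein, a small protein that binds metal ions. Its 0 h arrays read 33.8, 183, 103.5 and 23.3 and its 5 h arrays 47.3, 52.1, 81.7 and 334.5. At 13 h the arrays read 3179, 465, 484 and 26.9, and at 22 h 1436, 7447, 4132.5, 255 and 1151. The arrays of 13 h and of 22 h were far apart, and at 13 h the lowest lay within the 0 h range. The 4 dpg tips read 1510.4, 2029, 1559 and 1251 and the section 36, 10.5 and 3.8. MT1C was below the stump at 8 dpg at 5 h, with a difference of -5.17 ± 0.814 (limma adjusted p = 2.89e-05), and above the section at 13 h by 3.32 ± 0.814 (limma adjusted p = 0.00545). The lowest 13 h array of MT1C, at 26.9, was below its highest section array, at 36. COR47, a dehydrin that accumulates in cold and drought, read 177, 667.5, 426 and 91.8 at 0 h, 417, 279.6, 649 and 986 at 5 h, 2015, 535, 131 and 159.6 at 13 h and 997, 5841, 2092, 840.1 and 2000.3 at 22 h. In both COR47 and MT1C the highest 13 h array was replicate 1 and the highest 22 h array was replicate 2. The section was high in COR47 at 1436.5, 1277 and 1696, within the range of the 4 dpg tips (1823, 1867, 809.9 and 983). COR47 was below the stump at 8 dpg at 13 h, with a difference of -3.75 ± 0.614 (limma adjusted p = 5.51e-05).

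**Figure D4:**
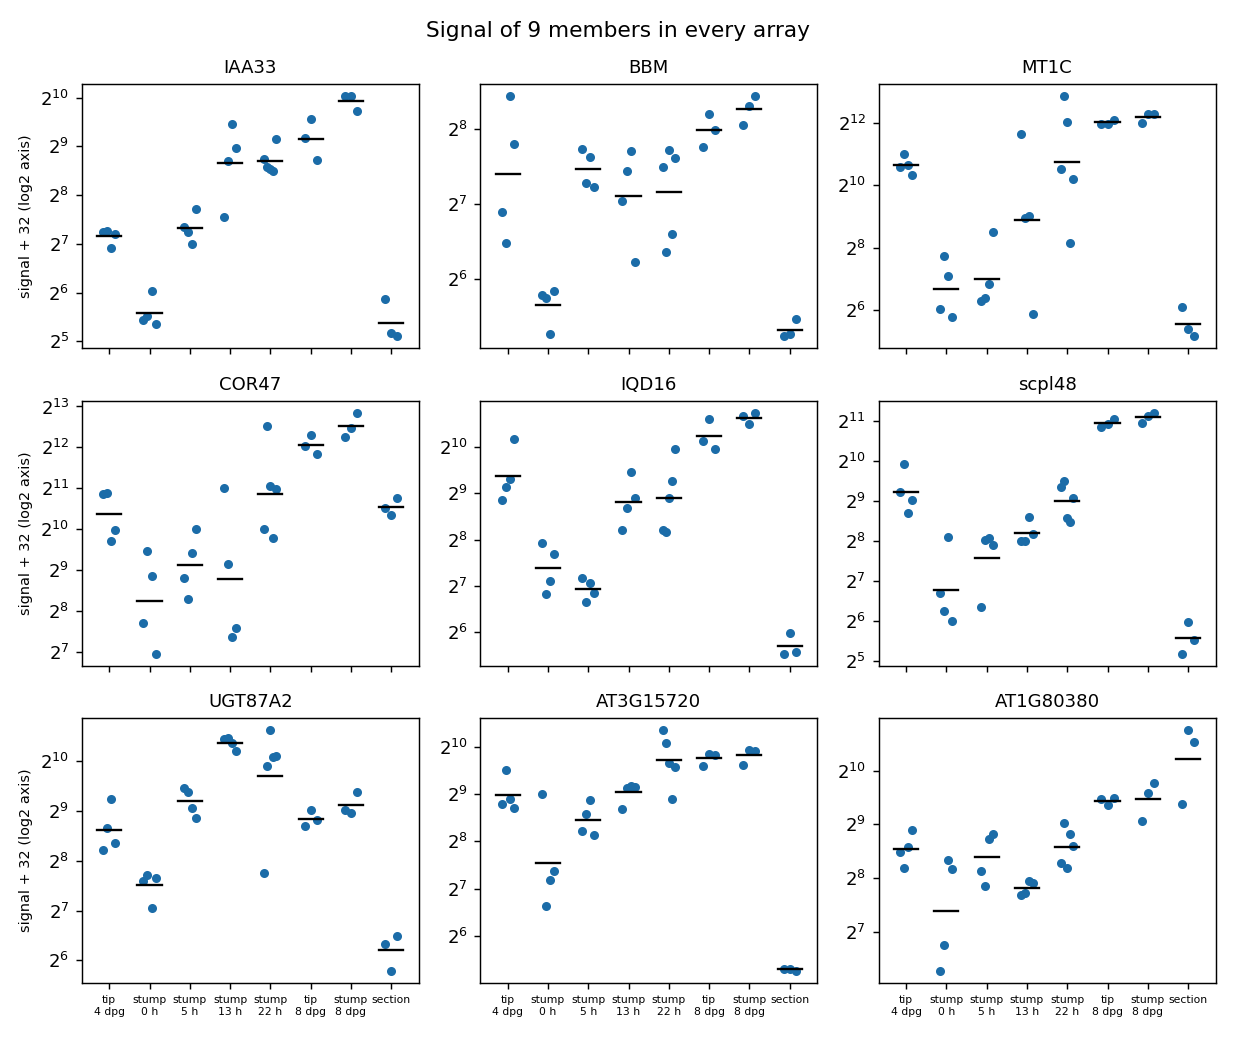
Signal plus 32 on a log2 axis in each of the 30 arrays for 9 members, with points for arrays and bars for the group mean of the log2 values. All 13 h arrays of IQD16 and 3 of 4 of IAA33 lay above every 5 h array, MT1C and COR47 scattered widely at 13 and 22 h, and AT1G80380 and COR47 were high in the section.

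GSTU25, a glutathione transferase of the tau class, read 607, 1685, 1836 and 1184 at 0 h and 3154, 6078, 4930.2 and 6389 at 5 h, with no overlap. The section gave 605, 461 and 546, and GSTU25 was higher at 5 h by 3.14 ± 0.368 (limma adjusted p = 2.94e-07). Hsp70-2, a chaperone, read 86.3, 244, 71 and 151 at 0 h and 737, 1131.5, 981 and 779.6 at 5 h, above every 4 dpg tip (504, 408, 506 and 289.9). It exceeded the section by 3.02 ± 0.398 at 5 h (limma adjusted p = 1.68e-06). AT1G56680, of the chitinase family, was back at 13 h, with a mean of 387 ± 53.9 at 5 h and 767 ± 305.5 at 13 h (SD, n = 4 each), and exceeded the section by 2.88 ± 0.391 at 5 h (limma adjusted p = 2.82e-06).

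UGT87A2 is a UDP-glycosyltransferase, an enzyme that adds sugars to small molecules. Its arrays read 163, 178, 101 and 171 at 0 h, 676, 639.7, 499 and 433 at 5 h and 1373, 1382, 1281 and 1142 at 13 h, with no overlap between any of these times. At 22 h they read 183, 923, 1554, 1055 and 1077, where replicate 1 was close to the highest 0 h array and the other 4 were above every 4 dpg tip. The 4 dpg tips read 264, 370.5, 571 and 294 and the section 48.7, 23.5 and 57.9. UGT87A2 exceeded the section at 13 h by 4.16 ± 0.379, the smallest adjusted p of the members in that comparison (limma adjusted p = 3.11e-09). The difference of 1.18 ± 0.351 between 13 h and 5 h was not called (limma adjusted p = 0.199).

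AT1G74010, a protein similar to strictosidine synthase, was higher at 5 h than at the later times after the 4 dpg cut in its group means. Its arrays read 330.1, 391, 276 and 474 at 5 h, 91.1, 127, 223.5 and 295 at 13 h and 161, 211, 165.5, 97.4 and 106.5 at 22 h, against 56.9, 152, 142 and 126 in the 4 dpg tip. All 5 h arrays exceeded all 4 dpg tip arrays, and the 13 h arrays overlapped both. AT1G74010 exceeded the section by 3.13 ± 0.33 at 5 h (limma adjusted p = 4.52e-08). Its difference of -0.97 ± 0.306 between 13 h and 5 h was not called (limma adjusted p = 0.262).

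The serine carboxypeptidase-like genes scpl48 and scpl28 were both back at 22 h. scpl48 read 71.3, 43.8, 243 and 31.7 at 0 h, 49, 225.5, 236 and 204 at 5 h, 223, 220.5, 357 and 257 at 13 h and 615.5, 684, 349.8, 324 and 508 at 22 h. The highest 0 h array was above every 5 h array, and the other 3 were lower than 3 of the 5 h arrays. scpl48 was below the stump at 8 dpg by a difference of -3.51 ± 0.389 at 5 h (limma adjusted p = 6.05e-08) and of -2.9 ± 0.389 at 13 h (limma adjusted p = 2.43e-06), and above the section at 13 h by 2.63 ± 0.389 (limma adjusted p = 1.4e-05). PPDK, which encodes pyruvate orthophosphate dikinase, read 11.5, 96.8, 254 and 72.2 at 5 h, where the lowest array lay in the 0 h range (14.9, 37.9, 4.0 and 24.7). Its 8 dpg tip was 2.455 above its 4 dpg tip, the most of the 86 members. AT3G55760, a plastid protein of starch granule metabolism, was back at 13 h, with means of 138 ± 78.7 at 5 h and 200.3 ± 19.5 at 13 h (SD, n = 4 each).

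AT1G80380 encodes a glycerate kinase, an enzyme of photorespiration, and was the named member with the highest section relative to the 4 dpg tip (1.68). Its section arrays read 633, 1697 and 1447, and its 5 h and 13 h arrays 247, 199, 394.5 and 422.5 and 173, 180.0, 216 and 209. Every section array was above every array of both times. AT1G80380 was lower than the section, with differences of -1.84 ± 0.365 at 5 h (limma adjusted p = 0.000475) and -2.4 ± 0.365 at 13 h (limma adjusted p = 2.13e-05). The other members lower than the section at 5 h were 246390_at and 259272_at, with differences of -1.74 and -2.30, and 259272_at was not called without replicate 1 at 5 h or replicate 3 of the section.

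AT4G15830, a protein with ARM repeats, and the unnamed 253480_at rose between 5 h and 13 h. AT4G15830 read 229, 223, 630.1 and 732 at 0 h, 555, 251, 195 and 299 at 5 h and 734, 1270.2, 759 and 854 at 13 h. All 13 h arrays were above all 5 h arrays, and the rise was 1.45 ± 0.326 (limma adjusted p = 0.0331, range 0.00212 to 0.198). 253480_at read 1790.3, 700.0, 720.2 and 438 at 5 h and 2200.4, 4218, 3642.5 and 3082 at 13 h, again with no overlap, and rose by 1.96 ± 0.341 (limma adjusted p = 0.00259).

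AT3G15680, with a zinc finger of the Ran-binding type, read 132, 87.1, 56.7 and 16.4 at 0 h and 203, 184.5, 389.9 and 224 at 5 h, with no overlap, and exceeded the section by 2.23 ± 0.329 at 5 h (limma adjusted p = 1e-05). AT5G45780, a receptor-like kinase with leucine-rich repeats, did so by 2.17 ± 0.339 (limma adjusted p = 2.11e-05), and AT3G51750, of unknown function, by 1.87 ± 0.42 (limma adjusted p = 0.00176). AT1G23040, a hydroxyproline-rich glycoprotein, did so by 1.62 ± 0.375 (limma adjusted p = 0.00228). AT1G53860, a remorin, was higher than the section at 13 h by 1.86 ± 0.391 (limma adjusted p = 0.00121). Its call at 5 h was lost in 9 of 16 alternatives. AT4G32605, of the mitochondrial glycoprotein family, was higher at 5 h by 1.11 ± 0.356 (limma adjusted p = 0.0291, range 0.00554 to 0.145), with the call lost in 7 of 16. AT3G55430, a family 17 glycosyl hydrolase, was called higher at 13 h, by 1.14 ± 0.299 (limma adjusted p = 0.00943), and not after median centring or without replicate 1 of the section.

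Other named members differed from the stump at 8 dpg. AT1G24440, with a RING-type domain, was lower at 5 h with a difference of -1.81 ± 0.378 (limma adjusted p = 0.00126) and at 13 h with -1.68 ± 0.378 (limma adjusted p = 0.00278). scpl28 was lower by a difference of -2.76 ± 0.448 at 5 h (limma adjusted p = 4.46e-05). AT4G35985 was lower at 13 h, with -1.50 ± 0.38 (limma adjusted p = 0.00856), and not without replicate 4 at 13 h or replicate 3 of the stump at 8 dpg. AT5G65300, AT5G60680 and AT1G62840 passed only in the comparison of the stump at 8 dpg with the section, at 2.01, 1.90 and 1.65, and AT4G13010, AT3G15810 and AT1G62520 passed in none of the 6.

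The 43 members without a single gene name fell into the classes of return as 22 at 5 h, 12 at 13 h and 9 at 22 h. Against the section 20 of them were higher at 5 h (46.5%, against 6.38% of all probe sets) and 25 at 13 h (58.1%, against 5.21%). At 5 h 2 were lower (4.65%, against 5.44% of all probe sets). Of these 43, 259516_at stood furthest above 0 h at 22 h (4.07). It read 392, 266, 76.1 and 79.6 at 0 h and 606.5, 991, 1967 and 2479 at 5 h. It read 1792, 652.5, 659 and 388 at 13 h and 3731, 7643, 2555, 1375.5 and 3757 at 22 h, so that 3 arrays at 13 h lay below 3 of the 4 arrays at 5 h. It exceeded the section by 3.59 ± 0.536 at 5 h (limma adjusted p = 1.15e-05). 256825_at, the member furthest above the 4 dpg tip at 22 h, read 153, 85.4, 46.9 and 151 at 5 h, 326, 529, 507 and 238 at 13 h and 1499.9, 189, 546, 757 and 939 at 22 h. Its 4 dpg tips read 456, 98.6, 73.7 and 92.3 and its 0 h arrays 168, 15.5, 6.3 and 9.2. All 13 h arrays were above all 5 h arrays. It exceeded the section at 13 h by 3.44 ± 0.531 (limma adjusted p = 2.62e-05). 259426_at had the largest difference from the section at 5 h, 4.67 ± 0.449 (limma adjusted p = 6.77e-09), and read 3332, 2749.5, 2271 and 1981 there against 44.4, 93.7 and 75.3 in the section. The smallest adjusted p against the section at 5 h belonged to 255782_at, at 3.17 ± 0.276 (limma adjusted p = 9.06e-10).

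**Figure D5:**
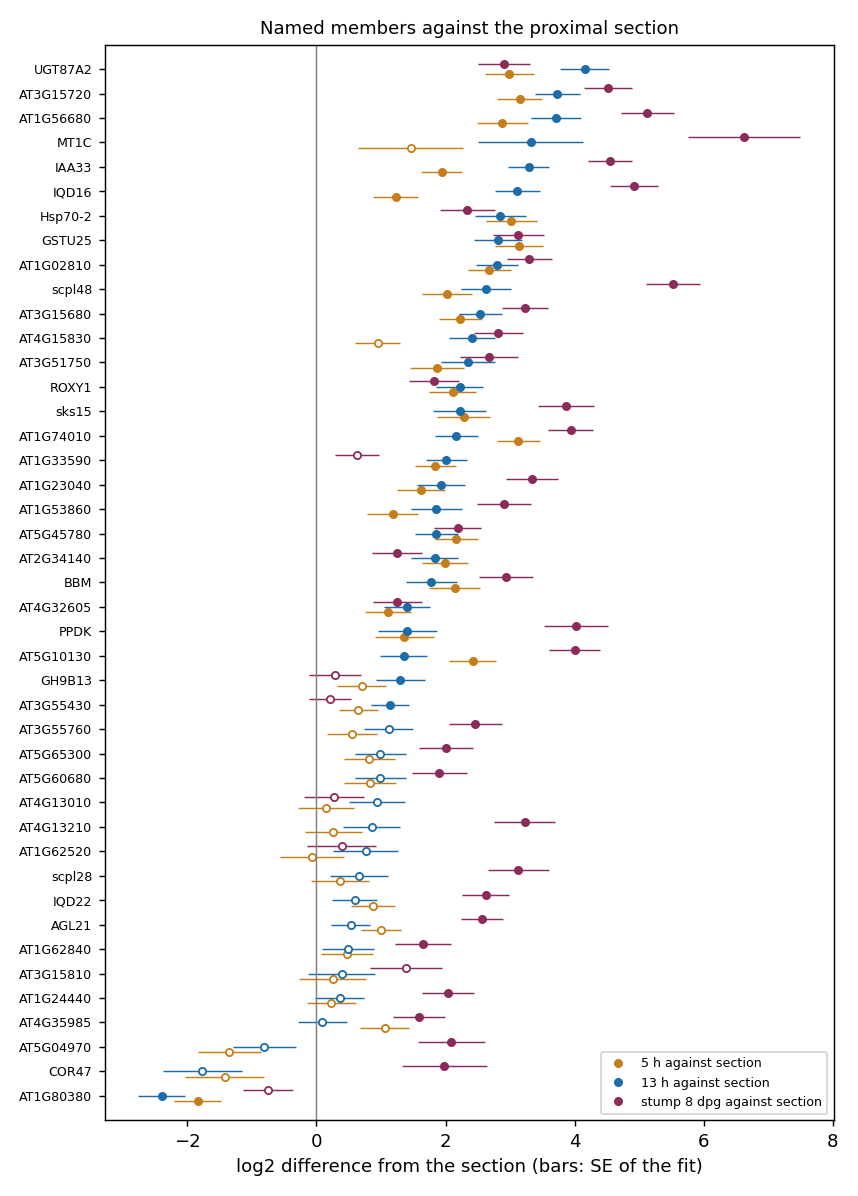
Log2 difference of the stumps at 5 h, 13 h and 8 dpg from the section for the 43 named members, with bars for the standard error of the fit and filled symbols for called members. UGT87A2 and AT3G15720 lay at least 2.91 above the section in all 3 comparisons, and AT1G80380 was below it at 5 h and 13 h.

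In 64 members the section mean was at least 1 below the 4 dpg tip (11.3% of all probe sets), a tip that the rule placed above 0 h. In 53 it was below the 0 h stump (65.6% of all probe sets) and in 12 at least 1 above it. The median difference of the section from 0 h was -0.235 over the members and -0.228 over all probe sets. In 11 members it was within 0.5 of the 4 dpg tip or above it, the named ones being AT1G80380, COR47, AT3G15810 and AT1G62520. The highest level over the 8 groups was in the stump at 8 dpg for 48 members, in the 8 dpg tip for 13, at 22 h for 8, at 13 h for 7, at 5 h for 6, in the section for 3 and in the 4 dpg tip for 1. The lowest was in the section for 51 members and at 0 h for 31, and at 5 h for 4.

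In the stump at 8 dpg 73 of 86 members lay within 0.5 of the 8 dpg tip (84.9%), against 92.7% of all probe sets and 87.8% of the tip genes not regained. 62 members were higher in the stump at 8 dpg than in the 8 dpg tip, by a median of 0.22 over all 86. 82 members were at least 1 above the 0 h stump there (4.84% of all probe sets), and in 76 every array of the stump at 8 dpg was above every 0 h array (8.02%). These values use the 8 dpg tip or the 0 h stump and carry no test.

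Of genes known for the root, few were named on this table, and few were members. Of 13 genes of the stem cell niche and patterning, 3 had a probe set with a name, and BBM was a member while AGL42 and JKD were not. Of 24 auxin genes 9 were named, and IAA33 was the only member. In the comparison of 13 h with 5 h 1 of the 9 rose, and against the section 2 were higher at 5 h and 2 at 13 h, IAA33 and GH3.3, with none lower. GH3.3 encodes an enzyme that joins auxin to amino acids. Of 23 genes of mitosis and DNA replication 3 were named (AUR1, AUR2 and PRL), with no member, and AUR2 rose from 5 h to 13 h by 1.20 ± 0.251 (limma adjusted p = 0.017). AUR1 and AUR2, mitotic kinases, were higher than the section at 13 h and not called at 5 h.

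Few markers of other cell types could be read by name. Of 13 root cap genes CLE40 and CR4 were named, of 13 stele genes LHW and of 12 genes of the epidermis and root hair EXPA7 and EXPA18, and of 8 endodermis genes none was named. None of these 5 was a member, and the 43 members without a single gene name were not looked up. The summed signal of the 2 root cap genes spanned 13.9 to 76.3 in the 4 dpg tip and 34.6 to 159.3 in the 0 h stump, so these markers did not place the tip above the stump. Both were dim in that tip, at 27.1 ± 26.4 for CLE40 and 26.15 ± 29.2 for CR4 (SD, n = 4). Their signals therefore cannot show where root cap tissue was. The summed signal of EXPA7 and EXPA18, which act in root hair cells, was 22.4 to 65.1 at 5 h, 116.6 to 1015 at 13 h and 120.1 to 1306 at 22 h, and 16.1 to 222.7 in the 4 dpg tip. Neither gene was called in any of the 6 comparisons. From 5 h to 13 h EXPA7 differed by 1.925 ± 0.592 (SE, limma adjusted p = 0.229). EXPA18 differed by 1.651 ± 0.541 (limma adjusted p = 0.306). The part of root hair cells in the other results was not tested. Name patterns for families of wall, stress and hormone genes matched 133 named probe sets, with IAA33 and GSTU25 as members. The patterns did not match COR47, Hsp70-2, AT1G56680 or the pectin genes described above, so this is no count of the members in those families.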

How the data were processed

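Affymetrix ATH1 arrays were hybridised with Arabidopsis root RNA amplified from 50 ng of total RNA by a two-cycle protocol, per the labels' protocols. The authors deposited a linear signal intensity for every probe set, made with MAS5 (version not stated) per the submitters' processing notes. Trimmed means (2%) ranged from 246.5 to 248.6 over 30 arrays and medians from 66.1 to 141.8, and no further scaling was applied. The number of arrays limits the precision. Scanner information files hold no measurement and were not used.

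Signals were transformed as log2(signal + 32). Group means were fitted over all arrays together with limma 3.58.1 in R 4.3.3 (trend=TRUE, checked on simulated data), with Benjamini-Hochberg adjustment over 22746 probe sets. The members and gene lists were chosen with earlier results of these data known. Tests were restricted to groups the rule did not use, of which the stump at 8 dpg was close to the 8 dpg tip that it did use. Counts of members against the section were not independent of the rule either. Named members were the 12 with the largest difference of 22 h from 0 h, the 8 per class of return with the largest difference of the tip from 0 h, and the 5 smallest p per direction and comparison. List and family genes and probe sets nearest a limit were named too. Further members were named after their values were seen. Gene names came from the platform annotation, which gave 1 gene for 13513 probe sets, several for 503 and none listed for 8730. Of the first, 13436 matched RefSeq TAIR10.1. Same-numbered arrays correlated at -0.0714 to 0.0693 in their deviations from the group means, so the numbers were not used to pair arrays. Alternatives were the constant, quantile normalization, median centring, a filter on the 40% dimmest probe sets, no trend, separate fits, a replicate block and leaving out each array. Leaving out the 4 arrays of highest median was added to the comparisons after the data had been seen. Plots used matplotlib 3.10.9.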

Additional observations from a re-analysis of the deposited data

Results flagged for a closer look

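Single arrays stood apart from the rest of their group in 11 of 190 sets of values looked at. Each set was a gene, or the mean of the members, in a group of 4 or 5 arrays. Chance gives about 1 in 20 for independent, normally distributed values. These sets share arrays, and the gene signals were not log-transformed, so that rate is no exact reference. In the 4 dpg tip, AT1G62840 read 134.8 in replicate 2 and 90.4 to 95.5 in the others, and AT2G34140 read 328 in replicate 3 and 187.1 to 200.9 in the others. At 0 h, AT1G33590 read 165.2 in replicate 2 against 40.7 to 60.8. AT1G62840 read 72.2 in replicate 1 against 10.3 to 11.8, and AT3G15720 read 482 in replicate 1 against 67.7 to 134.6.

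At 5 h, MT1C read 334.5 in replicate 4 against 47.3 to 81.7. At 13 h replicate 1 stood apart in 3 genes: AT3G15720 read 380.3 against 526.7 to 542.5, MT1C 3178.9 against 26.9 to 484.3 and IQD22 132.1 against 53.8 to 65.4. At 22 h, COR47 read 5841.3 in replicate 2 against 840.1 to 2091.9, and AT2G34140 read 85.7 in replicate 1 against 250.7 to 315.8.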

How the results depend on the processing

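For the calls of members named by the fixed rules, 1861 values were computed under alternatives: 1753 kept the call, 108 lost it in the same direction and 0 changed sign. Members named after their values were seen are not in this count. Among them AT2G34140, AT4G35985 and AT3G55430 also lost calls under some alternatives. The count for 13 h against 5 h moved most. It was 4, and 2 after quantile normalization, 2 after median centring, 7 with only the groups compared in the fit (5 higher, 2 lower) and 8 without the 4 arrays of highest median (7 higher, 1 lower). The added constant set the number of members: with 1 the rule kept 168, of which 79 were among the 86, in classes of 87 (5 h), 40 (13 h) and 41 (22 h), and with 64 it kept 50, of which 49 were among the 86, in classes of 29, 11 and 10. Without the 4 arrays the class first back at 22 h held 26. Leaving out 1 array at a time gave 2 to 3 members called for 13 h against 5 h, 35 to 42 for 5 h and 25 to 35 for 13 h against the stump at 8 dpg. Against the section it gave 41 to 47 for 5 h, 45 to 53 for 13 h and 64 to 67 for the stump at 8 dpg. The number of members then ranged from 78 to 125, and the classes from 40 to 82, 15 to 28 and 15 to 29. The cause was not tested.

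With the replicate block the counts were 4, 44, 35, 46, 52 and 70 for the 6 comparisons, in the order 13 h against 5 h, 5 h and 13 h against the stump at 8 dpg, and 5 h, 13 h and the stump at 8 dpg against the section, compared with 4, 44, 36, 46, 53 and 68 without it. With 3 to 5 arrays a group, differences of single dim members within the spread of their arrays were not detectable.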
